A study of Mus musculus with 30 samples.

Results

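Type I interferon-stimulated effector genes were followed in 2 mouse blood progenitor lines carrying an empty retroviral vector, STAT3 or STAT3 Y640F. The genes were taken by symbol from a written list of 44 antiviral effectors, sensors and modifiers, with the Oas, Ifitm, Irf, Gbp and Stat genes left out. All 44 were found among the 50686 genes in the count files. The RNA libraries number 18, with 3 in each of 6 groups. HPC7 is labelled as strain 129SV and HPCLSK as C57BL/6N, and both are labelled as haematopoietic stem and progenitor cells. As background, both lines are maintained by the transcription factor Lhx2 and depend on stem cell factor, which was in the medium. The labels name the empty vector after dsRed, a red fluorescent protein, and give the treatment as none. The series text calls the 3 libraries of a group technical replicates, so errors and p-values measure the spread between libraries, which may be technical. The chromatin samples of the series, 12 in number, were not analysed here.

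Type I interferons are secreted on viral infection and bind a receptor made of Ifnar1 and Ifnar2. The receptor's kinases Jak1 and Tyk2 phosphorylate Stat2, which acts with the DNA-binding factor Irf9. The complex that holds Irf9 binds the interferon-stimulated response element in the promoters of effector genes, and unphosphorylated forms of the complex can hold these genes at a basal level. STAT3, another substrate of Janus kinases, is known to restrain interferon responses in several cell types. Y640F replaces a tyrosine in the SH2 domain of STAT3 and is known as an activating change from lymphoid leukaemia and other tumours.

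The libraries held between 9537258 and 38556669 counts. Levels are in CPM, the count of a gene scaled to the size of its library with edgeR's TMM factors, and a floor of 3 counts equals 0.0778 CPM in the deepest library and 0.315 CPM in the shallowest. CPM were scaled within each line, and over all 18 libraries where levels of the 2 lines are compared. The 3 empty vector libraries of HPC7 differed more among themselves (chi-square per degree of freedom of 11.1 to 21.9) than the libraries of the other HPC7 groups (3.34 to 4.80). In HPCLSK, library 1 of Y640F (23.0 and 29.4 against the other two, which stood at 3.49 from each other) and library 1 of empty vector (8.66 and 11.5, against 2.61) stood apart. Stat3 RNA can check whether a library carries a STAT3 vector, but not which form. It averaged 227, 1005 and 684 CPM with empty vector, STAT3 and Y640F in HPC7, and 348, 591 and 1880 CPM in HPCLSK. Stat3 RNA thus differed between the 2 vectors in opposite order in the 2 lines, and the changed residue and the level of Stat3 RNA cannot be told apart. The 10 stem and progenitor markers (Kit, Cd34, Gata2 and others) all reached at least 1 CPM in every group. Line, strain label and sequencing run also cannot be told apart, because the file headers name different runs for HPC7 and HPCLSK.

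Promoter sequences were available for 31 of the 44 genes as the 250 bases before the annotated start (RefSeq, GRCm38.p6). The sequences below belong to the 4 genes of that table with the largest difference between Y640F and STAT3 in HPC7, and to 2 abundant members called in no comparison, Trim25 and Eif2ak2. They are shown so that the response element can be compared between members that were called and members that were not. Capitals mark matches on either strand to the interferon-stimulated response element, searched as 2 GAAA blocks set 2 bases apart, or to TTCNNNGAA, the gamma-activated site that STAT3 dimers are known to bind.
Xaf1: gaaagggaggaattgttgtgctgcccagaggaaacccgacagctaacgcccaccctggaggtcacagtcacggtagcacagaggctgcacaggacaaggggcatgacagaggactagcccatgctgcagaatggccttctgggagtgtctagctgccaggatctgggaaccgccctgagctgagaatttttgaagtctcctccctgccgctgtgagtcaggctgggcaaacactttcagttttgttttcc
Ifit1: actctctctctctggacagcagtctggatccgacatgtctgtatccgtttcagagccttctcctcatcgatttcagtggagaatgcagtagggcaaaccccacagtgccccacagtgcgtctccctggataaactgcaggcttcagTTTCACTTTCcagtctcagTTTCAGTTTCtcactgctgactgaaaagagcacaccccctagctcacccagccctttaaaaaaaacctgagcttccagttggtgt
Isg15: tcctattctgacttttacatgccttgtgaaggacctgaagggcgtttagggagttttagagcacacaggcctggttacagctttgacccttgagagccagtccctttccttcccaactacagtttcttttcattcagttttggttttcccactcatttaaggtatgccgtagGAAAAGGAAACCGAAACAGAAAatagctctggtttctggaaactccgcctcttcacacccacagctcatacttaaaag
Bst2: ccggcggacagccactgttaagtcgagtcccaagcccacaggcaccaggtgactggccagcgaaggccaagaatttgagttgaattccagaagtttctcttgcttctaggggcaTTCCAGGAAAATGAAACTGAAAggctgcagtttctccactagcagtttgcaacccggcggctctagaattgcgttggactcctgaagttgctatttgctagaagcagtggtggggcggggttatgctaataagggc
Trim25: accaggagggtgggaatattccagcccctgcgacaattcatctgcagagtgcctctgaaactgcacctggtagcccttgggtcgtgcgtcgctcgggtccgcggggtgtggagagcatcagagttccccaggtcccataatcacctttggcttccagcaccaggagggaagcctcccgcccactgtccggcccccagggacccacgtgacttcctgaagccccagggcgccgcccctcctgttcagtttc
Eif2ak2: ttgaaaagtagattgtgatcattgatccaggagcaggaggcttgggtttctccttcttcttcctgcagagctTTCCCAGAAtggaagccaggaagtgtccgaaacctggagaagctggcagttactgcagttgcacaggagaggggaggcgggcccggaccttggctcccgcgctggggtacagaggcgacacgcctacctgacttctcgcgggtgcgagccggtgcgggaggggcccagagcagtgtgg
The windows lie at chr11:72301379-72301628 (Xaf1, plus strand), chr19:34640639-34640888 (Ifit1, plus strand), chr4:156200819-156201068 (Isg15, minus strand), chr8:71537473-71537722 (Bst2, minus strand), chr11:88999153-88999402 (Trim25, plus strand) and chr17:78882573-78882822 (Eif2ak2, minus strand). Positions are counted back from the start, with −1 as the last base before it. Isg15 held 3 overlapping matches to the interferon element between −78 and −57. Ifit1 held 2 separate matches, read on the opposite strand, at −104 to −95 and −85 to −76. Bst2 held 2 overlapping matches between −130 and −115, and a gamma-activated site at −136 to −128 that overlaps the first of them. Eif2ak2 held a gamma-activated site at −178 to −170, and the Xaf1 and Trim25 windows held neither string of letters.

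Across the list, the interferon element occurred in 8 of 31 members (25.8%: Isg15, Ifit1, Ifit3, Ifit3b, Rsad2, Bst2, Trim30a and Ifi203), while 3.46% of the 27025 genes in the table held it. The gamma-activated site occurred in 4 of 31 members (12.9%: Isg20, Ifit2, Bst2 and Eif2ak2), against 8.13% of genes. Both matches are descriptions of letters in a short window and were not tested as binding sites. Of the 15 members in the table called higher in the HPC7 comparison of Y640F with STAT3, 6 held the interferon element. It was held by 1 of the 13 members not called in that comparison and by 1 of the 3 not tested.

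In HPC7, Y640F libraries had more RNA of interferon-stimulated genes than STAT3 libraries, with called members in every functional class. Of 39 members with enough reads to be tested, 22 were called higher and 0 lower, where a call needs an adjusted p under 0.05 in edgeR's quasi-likelihood test and at least a 2-fold change. Over all 12683 genes tested, 6.17% were called higher and 1.73% lower, 7.89% in all. All 39 log2 differences were above 0, with a median of 1.27 against −0.00054 over all genes, and in 38 the 3 Y640F libraries all stood above the 3 STAT3 libraries, as they did for 33.4% of all genes. In 0 members did they all stand below, as they did for 31.8% of all genes. An adjusted p under 0.05, whatever the fold, was reached by 38 members and by 51.2% of all genes. None of the 39 was lower at an unadjusted p under 0.05, and DESeq2 called 25 higher and 0 lower. The map of log2 differences by library gives every member in the 18 libraries.

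**Figure D1:**
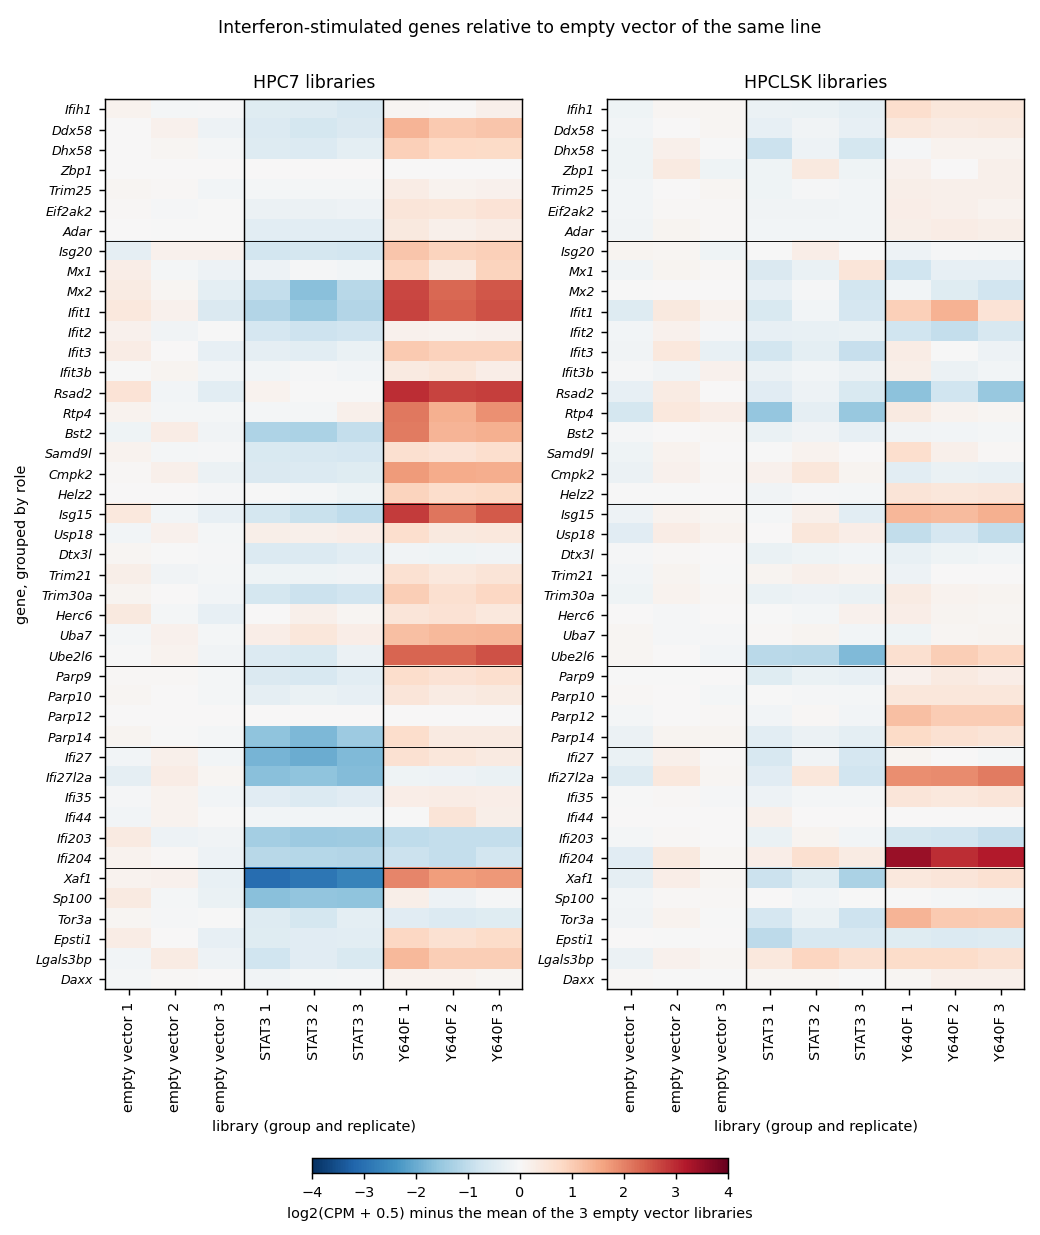
Each cell is log2(CPM + 0.5) of 1 gene (rows, grouped by role) in 1 library (columns), minus the mean of the 3 empty vector libraries of the same line; red is higher and blue lower. The STAT3 columns of HPC7 are blue in most rows and the Y640F columns red, though many of these rows are pale. The median fitted log2 fold change over empty vector is −0.57 with STAT3 and 0.63 with Y640F in HPC7. In HPCLSK these medians are −0.13 and 0.21, and Ifi204 has the strongest red.

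Antiviral effectors made up the largest class, with 9 of 11 tested members called higher for Y640F over STAT3 in HPC7 and a median log2 difference of 2.63. Ifit1, which binds viral RNA lacking the host's cap methylation, stood at 16.5, 12.8 and 14.6 CPM with Y640F, 0.649, 0.435 and 0.641 with STAT3, and 2.95, 2.41 and 1.23 with empty vector. The 3 groups did not overlap, and Ifit1 was 4.68 ± 0.25 higher on the log2 scale with Y640F than with STAT3 (SE, n = 3 libraries per group, adjusted p = 4.4e-09). Mx2, a dynamin-like GTPase that traps viral components, stood at 11.9, 9.07 and 10.3 CPM with Y640F, 0.494, 0.109 and 0.405 with STAT3, and 1.92, 1.55 and 0.966 with empty vector. Its log2 difference between the forms was 4.99 ± 0.28 (adjusted p = 9.1e-09). Bst2, the tether that holds budding virus at the cell surface, stood at 12.9, 7.72 and 8.06 CPM with Y640F, 0.865, 0.815 and 1.15 with STAT3, and 2.32, 3.44 and 2.40 with empty vector. That is a log2 difference of 3.35 ± 0.24 between the forms (adjusted p = 9.1e-08). These 3 genes share a pattern in which empty vector lay between the 2 forms of STAT3.

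Rsad2 and Cmpk2, which encode the radical SAM enzyme viperin and a mitochondrial nucleotide kinase that acts with it, are neighbours on chromosome 12 (26442753 to 26456452 and 26469204 to 26479835). Rsad2 stood at 31.2, 26.2 and 27.4 CPM with Y640F, 4.05, 3.56 and 3.51 with STAT3, and 5.42, 3.31 and 2.52 with empty vector. STAT3 and empty vector libraries overlapped, with a log2 fold change of 0.01 ± 0.21 (adjusted p = 0.97). Rsad2 was 2.93 ± 0.17 higher with Y640F than with STAT3 (adjusted p = 8.7e-09) and 2.94 ± 0.17 higher than with empty vector (adjusted p = 1.2e-08). Cmpk2 stood at 28.0, 23.7 and 23.5 CPM with Y640F and 8.52, 9.45 and 6.85 with empty vector, a log2 rise of 1.61 ± 0.11 (adjusted p = 3.6e-08). The other members of this class called higher for Y640F over STAT3 were Isg20, an exonuclease (1.76 ± 0.12), Ifit3 (2.63 ± 0.33), Samd9l (1.27 ± 0.06) and Rtp4.

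Rtp4 RNA was almost absent from HPC7 without Y640F, with 2 counts over the 3 empty vector libraries and 3 over the STAT3 libraries, against 137 with Y640F. The ratio of Y640F to empty vector was 55.8, with a 95% counting interval of 15.2 to 466, and that of Y640F to STAT3 was 44.4 (14.9 to 218). Mx1 did not pass the filter on low counts within HPC7, with 6, 3 and 45 counts over the 3 libraries of empty vector, STAT3 and Y640F. Ifit3b had 3, 1 and 20 counts, and it is a near copy of Ifit3, so that reads of the 2 genes may be split or lost in counting. Ifit2 (0.94 ± 0.08) and Helz2 (0.88 ± 0.05) were the tested effectors that stayed under the fold minimum, with Y640F libraries all above STAT3 libraries in both. Helz2 lies on chromosome 2, where the median log2 difference of all 1008 genes tested was 0.44.

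The ISG15 system, in which a ubiquitin-like protein is attached to targets by its own enzymes, showed its largest changes with Y640F in HPC7 at the modifier and its conjugating enzyme. Isg15, the modifier, stood at 15.6, 9.56 and 12.1 CPM with Y640F, 0.927, 0.733 and 0.641 with STAT3, and 2.59, 1.63 and 1.35 with empty vector in HPC7. Y640F libraries were above both other groups, with a log2 difference of 4.0 ± 0.25 from STAT3 (adjusted p = 1.9e-08) and of 2.76 ± 0.22 from empty vector (adjusted p = 1.8e-07). Ube2l6, the conjugating enzyme, stood at 16, 16 and 18.8 CPM with Y640F, 1.73, 1.66 and 2.29 with STAT3, and 2.79, 3.09 and 2.52 with empty vector. Its log2 difference was 3.17 ± 0.13 from STAT3 (adjusted p = 3.3e-10) and 2.61 ± 0.12 from empty vector (adjusted p = 1.6e-09). Ube2l6 lies on chromosome 2, where the median log2 fold change of 1008 genes was 0.47 with Y640F over empty vector and 0.44 over STAT3, and it was still called with that median subtracted. Uba7, the activating enzyme, rose with Y640F over empty vector by 1.28 ± 0.07 (adjusted p = 7.0e-09), and its difference from STAT3 was 0.94 ± 0.07. Herc6, the mouse ligase for ISG15, stood at 6.62, 4.89 and 4.62 CPM on average with Y640F, STAT3 and empty vector, and Y640F was called in neither comparison. Usp18, the protease that removes ISG15 and also blocks Ifnar2 signalling, was abundant in all 9 HPC7 libraries at 82.1 to 142 CPM, and its difference between the forms was 0.26 ± 0.08. Trim30a was called higher (1.63 ± 0.08), but it belongs to a family of similar genes on chromosome 7. Reads that match several of these genes alike are lost in counting, and those kept may not all be its own.

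In the class of sensors of viral nucleic acid and their signalling, Ddx58 (RIG-I) and Dhx58 (LGP2) were called higher for Y640F over STAT3 in HPC7. The other 4 tested members of the class were not. Ddx58 stood at 77.3, 61.9 and 65.3 CPM with Y640F, 20.2, 18.1 and 19.8 with STAT3, and 30.2, 33.9 and 25.8 with empty vector, with a log2 difference of 1.82 ± 0.10 between the forms. Dhx58 averaged 6.00 CPM with Y640F and 2.11 with STAT3 (1.51 ± 0.12). Ifih1 (MDA5), Trim25, Eif2ak2 (the kinase PKR) and Adar (an RNA-editing enzyme) differed by 0.29 to 0.73, with no overlap between the 3 and 3 libraries. Eif2ak2, for example, averaged 170, 103 and 121 CPM with Y640F, STAT3 and empty vector. Ifih1 lies on chromosome 2, where the median log2 difference between the forms was 0.44 over 1008 genes.

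In the ADP-ribosyl transferase group, Parp14 and Parp9 were called higher for Y640F over STAT3 in HPC7, and Parp10 (0.73 ± 0.06) was not. Parp14 stood at 29.2, 23.0 and 23.1 CPM with Y640F, 5.53, 4.78 and 6.14 with STAT3, and 19.2, 17.4 and 16.6 with empty vector. Parp9 and Dtx3l, whose proteins form a complex, lie head to head on chromosome 16 (35938470 to 35972605 and 35926511 to 35939151) and overlap at their starts. Parp9 differed by 1.22 ± 0.06 and Dtx3l by 0.37 ± 0.05 between the forms, and the counting kept the strands apart. Parp12, another member of the group, had 0 counts in all 9 HPC7 libraries.

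The remaining members held the largest single difference. Xaf1, which antagonises the apoptosis inhibitor XIAP, stood at 33.9, 27.6 and 29.1 CPM with Y640F, 0.556, 0.679 and 0.877 with STAT3, and 9.19, 9.37 and 6.67 with empty vector in HPC7. Its log2 difference between the forms was 5.42 ± 0.17 (adjusted p = 5.2e-11), the highest fitted value among the 39 tested members. Sp100, a nuclear body protein, stood at 3.20, 2.24 and 2.58 CPM with Y640F and 0.494, 0.570 and 0.539 with STAT3 (2.31 ± 0.25, adjusted p = 3.6e-06), beside 3.53, 2.49 and 2.14 with empty vector. Ifi27, an interferon-inducible mitochondrial protein, stood at 40.7, 36.5 and 34.1 CPM with Y640F and 7.01, 6.27 and 7.45 with STAT3 (2.43 ± 0.10, adjusted p = 5.4e-10). Lgals3bp (2.37 ± 0.23) and Epsti1 (1.21 ± 0.12) were also called higher, whereas Tor3a (0.03 ± 0.09) and Daxx (0.21 ± 0.04) were not. The plot of 9 genes by library shows these levels in both lines.

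**Figure D2:**
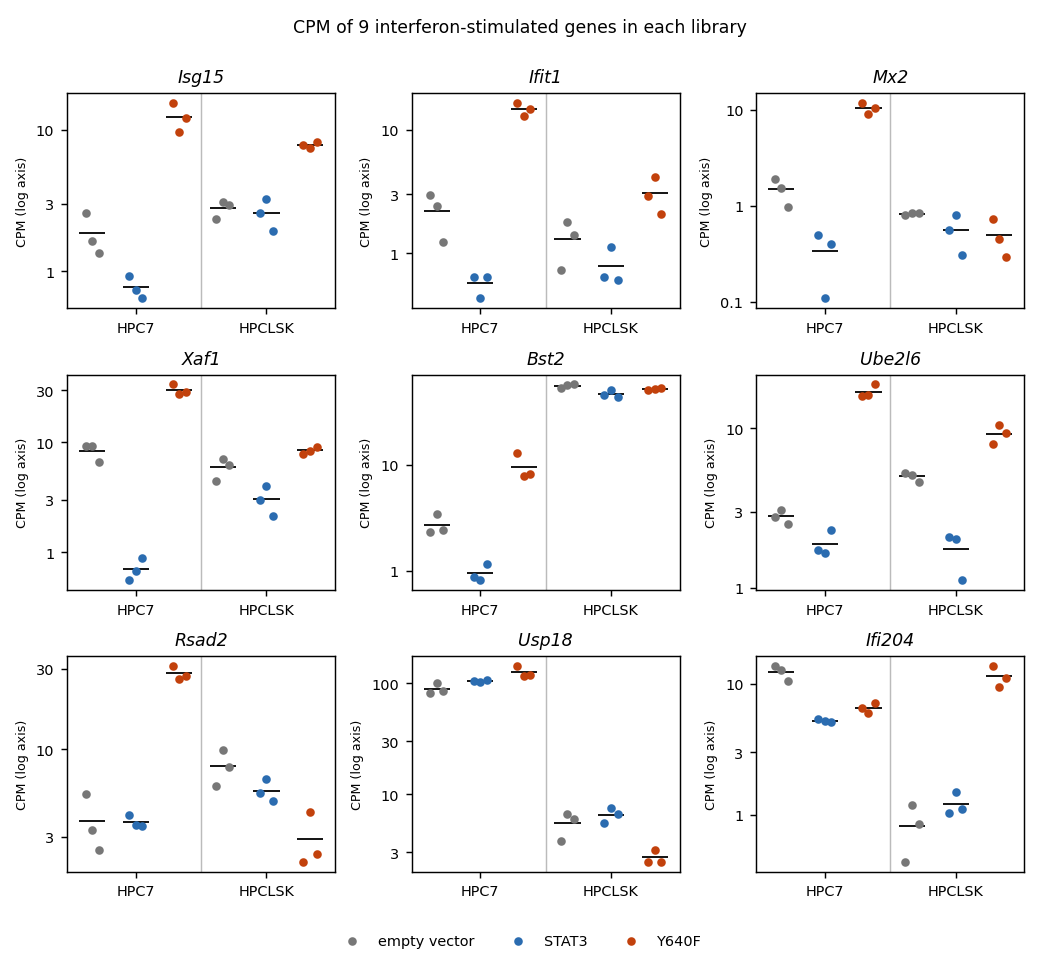
CPM on a log axis for 9 interferon-stimulated genes in each of the 18 libraries, with empty vector in grey, STAT3 in blue and Y640F in orange, and a bar at the mean of 3 libraries. In HPC7 the Y640F points of Xaf1 lie at 27.6 to 33.9 CPM and the STAT3 points at 0.556 to 0.877, while Usp18 is at 82.1 CPM or more in every HPC7 library.

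With STAT3 against empty vector in HPC7, 11 of 39 members tested were called lower and 0 higher, where 5.41% of all genes tested were called lower and 1.81% higher, 7.22% in all. The 3 STAT3 libraries all stood below the 3 empty vector libraries in 30 members (28.8% of all genes) and all above in 2 (27.2%). An adjusted p under 0.05 was reached by 31 members and 48.6% of all genes. The median log2 fold change was −0.57 against −0.0020 over all genes. Without a fold minimum, 2 members were higher at an unadjusted p under 0.05, and DESeq2 called 11 lower and 0 higher. Xaf1 fell by 3.56 ± 0.20 on the log2 scale (adjusted p = 1.2e-08), from the levels given above. Ifi27 stood at 24.6, 30.6 and 24.8 CPM with empty vector, from which the STAT3 libraries showed a fall of 1.95 ± 0.11 (adjusted p = 8.1e-09). Its neighbour on chromosome 12, Ifi27l2a, stood at 0.0618, 0.0815 and 0.0337 CPM with STAT3 (6 counts in all) and 0.903, 1.68 and 1.38 with empty vector, while Y640F libraries held 106 counts in all (−4.35 ± 0.39, adjusted p = 9.2e-07). Parp14 fell by 1.70 ± 0.12 (adjusted p = 8.7e-08) and Sp100 by 2.32 ± 0.25 (adjusted p = 4.7e-06). Ifit1 (−1.89 ± 0.33), Mx2 (−2.13 ± 0.39), Bst2 (−1.52 ± 0.29) and Isg15 (−1.24 ± 0.33) were also called lower. Without library 1 of empty vector, Isg15 was at −0.93, under the fold minimum.

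The last members called lower with STAT3, Ifi203 and Ifi204, lie on chromosome 1, as Sp100 does, and encode DNA-binding proteins of the HIN-200 family. Ifi203 stood at 43.4, 41.1 and 41.9 CPM with STAT3 and 144, 97.8 and 102 with empty vector, and Y640F libraries at 55.3, 58.0 and 58.3 were also below empty vector. Ifi204 stood at 5.41, 5.24 and 5.09 CPM with STAT3, 6.5, 6.01 and 7.17 with Y640F and 13.6, 12.7 and 10.5 with empty vector. For both genes, the 2 vectors lay on the same side of empty vector. Over all 793 genes tested on chromosome 1 the median log2 fold change was −0.34 for each vector against empty vector. The part of this shift in these 2 results was not tested. With the chromosome's median removed, Ifi204 was at −0.87, under the fold minimum, and the other 10 members were still called.

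Y640F against empty vector in HPC7 gave 13 of 39 members called higher and 0 lower, where 4.54% of all genes were called higher and 3.64% lower, 8.18% in all. Y640F libraries all stood above empty vector in 31 members (31.6% of all genes) and all below in 4 (29.5%), and 35 members and 57.3% of all genes had an adjusted p under 0.05. The median log2 fold change was 0.63 against 0.0012 over all genes, and without a fold minimum 4 members were lower at an unadjusted p under 0.05, while DESeq2 called 14 higher and 1 lower. This comparison shares its empty vector libraries with that of STAT3 against empty vector. Isg15 (2.76), Mx2 (2.85), Ifit1 (2.79), Bst2 (1.82) and Xaf1 (1.86) rose on the log2 scale with Y640F and fell with STAT3, where their values were −1.24, −2.13, −1.89, −1.52 and −3.56. Rsad2, Ube2l6, Cmpk2, Uba7, Ddx58, Lgals3bp, Ifit3 and Rtp4 rose with Y640F and were not called with STAT3. Ifi27 (0.48), Ifi27l2a (−0.33), Parp14 (0.50) and Sp100 (−0.02) were not called with Y640F, so that these 4 genes, all called lower with STAT3, lay less than 2-fold from empty vector with Y640F.

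HPCLSK gave a smaller and more mixed picture. With STAT3 against empty vector, 1 of 39 members tested was called, Ube2l6, and it was lower; 2.8% of all 12552 genes were called higher and 1.79% lower, 4.6% in all. STAT3 libraries all stood below empty vector in 17 members (18.3% of all genes) and all above in 2 (18.7%), and 10 members and 14.1% of all genes had an adjusted p under 0.05. Ube2l6 stood at 2.09, 2.02 and 1.12 CPM with STAT3, 7.99, 10.4 and 9.24 with Y640F and 5.27, 5.08 and 4.60 with empty vector. It fell by 1.46 ± 0.21 on the log2 scale with STAT3 (adjusted p = 0.00097). The median over members was −0.13, without a fold minimum 1 member was higher and 16 lower at an unadjusted p under 0.05, and DESeq2 called 2 lower. The next lowest values were those of Rtp4 (−1.13 ± 0.37, adjusted p = 0.069), Xaf1 (−0.91 ± 0.23) and Epsti1 (−0.77 ± 0.09), which were not called. The count was 3 without library 1 of empty vector and 3 without library 2 of STAT3.

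With Y640F against empty vector in HPCLSK, 6 of 39 members were called higher and 2 lower, while 9.62% of all genes were called higher and 6.57% lower. The members' share called, 20.5%, was thus near the 16.2% of all genes called in either direction. Y640F libraries all stood above empty vector in 21 members (33.6% of all genes) and all below in 9 (32.1%), and 26 members and 58.5% of all genes had an adjusted p under 0.05. Ifi204 had the largest rise, standing at 13.7, 9.44 and 11.1 CPM with Y640F, 1.04, 1.5 and 1.12 with STAT3, and 0.439, 1.18 and 0.852 with empty vector. The log2 rise was 3.70 ± 0.26 (adjusted p = 1.3e-06), and no Y640F library overlapped the others. Ifi27l2a stood at 3.20, 3.30 and 3.77 CPM with Y640F and 0.219, 0.876 and 0.568 with empty vector (2.51 ± 0.43, adjusted p = 0.00056). Isg15 stood at 7.79, 7.37 and 8.23 CPM with Y640F, 2.57, 3.24 and 1.93 with STAT3 and 2.34, 3.07 and 2.95 with empty vector, a rise of 1.47 ± 0.18 (adjusted p = 4.4e-05) to a level with no overlap. Parp12 stood at 48.6, 43.5 and 42.6 CPM with Y640F and 20.1, 21.2 and 21.9 with empty vector (1.09 ± 0.08, adjusted p = 1.2e-06).

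Tor3a, an ATPase of the endoplasmic reticulum, stood at 47.3, 37.5 and 36.8 CPM with Y640F, 11.2, 15.1 and 9.97 with STAT3 and 16.5, 19.9 and 18 with empty vector (1.15 ± 0.14, adjusted p = 6.1e-05). Ifit1 stood at 2.93, 4.14 and 2.08 CPM with Y640F, 0.642, 1.13 and 0.611 with STAT3 and 0.731, 1.80 and 1.42 with empty vector, a rise of 1.14 ± 0.34 (adjusted p = 0.015) that fell under the fold minimum without library 1 of empty vector (0.87) or library 2 of Y640F (0.83). Without both libraries numbered 1 that stood apart, Tor3a was at 0.94, Parp12 at 0.98 and Ifit1 at 0.87, all under the fold minimum, and 3 members were called higher and 3 lower.

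Rsad2 and Usp18 fell with Y640F in HPCLSK. Rsad2 stood at 2.13, 4.20 and 2.37 CPM with Y640F, 5.46, 6.61 and 4.89 with STAT3 and 6.00, 9.90 and 7.78 with empty vector. All Y640F libraries were below all others, with a log2 fall of 1.47 ± 0.26 from empty vector (adjusted p = 0.00069). Usp18 stood at 2.46, 3.17 and 2.47 CPM with Y640F, 5.46, 7.55 and 6.62 with STAT3 and 3.80, 6.66 and 6.02 with empty vector. Its fall from empty vector was 1.05 ± 0.23 (adjusted p = 0.0024), and it was under the fold minimum without library 2 (−0.88) or 3 (−0.99) of empty vector or library 3 of Y640F (−0.98).

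Y640F against STAT3 in HPCLSK gave 9 members called higher and 1 lower of 39, with 8.11% of all genes called higher and 6.09% lower, 14.2% in all, and a median log2 difference of 0.36. Y640F libraries all stood above STAT3 in 24 members (32.4% of all genes) and all below in 7 (29.2%), and 28 members and 53.8% of all genes had an adjusted p under 0.05. The member called lower was Usp18 (−1.29 ± 0.23, adjusted p = 0.00078). Ifi204 (3.16 ± 0.26), Ifi27l2a (2.75 ± 0.47), Ube2l6 (2.35 ± 0.20), Ifit1 (1.82 ± 0.39), Tor3a (1.71 ± 0.15), Isg15 (1.54 ± 0.18), Xaf1 (1.41 ± 0.22), Rtp4 (1.24 ± 0.37) and Parp12 (1.13 ± 0.08) were called higher. Rtp4 stood at 8.93, 7.63 and 7.21 CPM with Y640F and 2.01, 5.21 and 2.04 with STAT3, and its empty vector libraries at 4.02, 9.29 and 8.29 overlapped Y640F. Library 2 of STAT3 held 0.891 CPM of Ifi27l2a against 0.241 and 0.102 in the other STAT3 libraries, and the difference was 4.20 without it. Xaf1 stood at 7.93, 8.41 and 9.10 CPM with Y640F, 2.97, 4.03 and 2.14 with STAT3 and 4.46, 7.14 and 6.19 with empty vector, so that Y640F libraries were above both other groups. Parp14 missed the fold minimum at a log2 difference of 1.00 ± 0.10, and Samd9l, Bst2, Sp100, Lgals3bp and Uba7 differed by 0.29 or less in size.

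The 2 lines share no library, so their responses can be set side by side. Of 38 members tested in both, 28 had the same sign for Y640F against STAT3, and 32 had the larger size in HPC7. All HPC7 values were above 0, so the same sign here only means a value above 0 in HPCLSK. The members called higher in both lines were Isg15, Ifit1, Ifi27l2a, Rtp4, Xaf1 and Ube2l6, which is 6 of the 22 called higher in HPC7 and 6 of the 9 in HPCLSK. Of all genes, 6.17% were called higher in HPC7 and 8.11% in HPCLSK, and the share called in both lines was not counted. Across these 38 genes Pearson's r of the log2 differences was 0.30 and Spearman's rho 0.22, a description over genes that are not independent replicates. For Y640F against empty vector, 26 had the same sign, with r of −0.19 and rho of −0.076. In that comparison 2 members were called in the same direction in both lines. For STAT3 against empty vector, 29 had the same sign, with r of 0.16 and rho of 0.18, and 0 were called in both lines. In both comparisons with empty vector most values lay on the same side of 0 in each line, which alone makes many signs match. Above 0 with Y640F were 33 of 39 tested members in HPC7 and 27 of 39 in HPCLSK. Below 0 with STAT3 were 34 of 39 in HPC7 and 29 of 39 in HPCLSK. The plot of Y640F over STAT3 gives both values for each member.

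**Figure D3:**
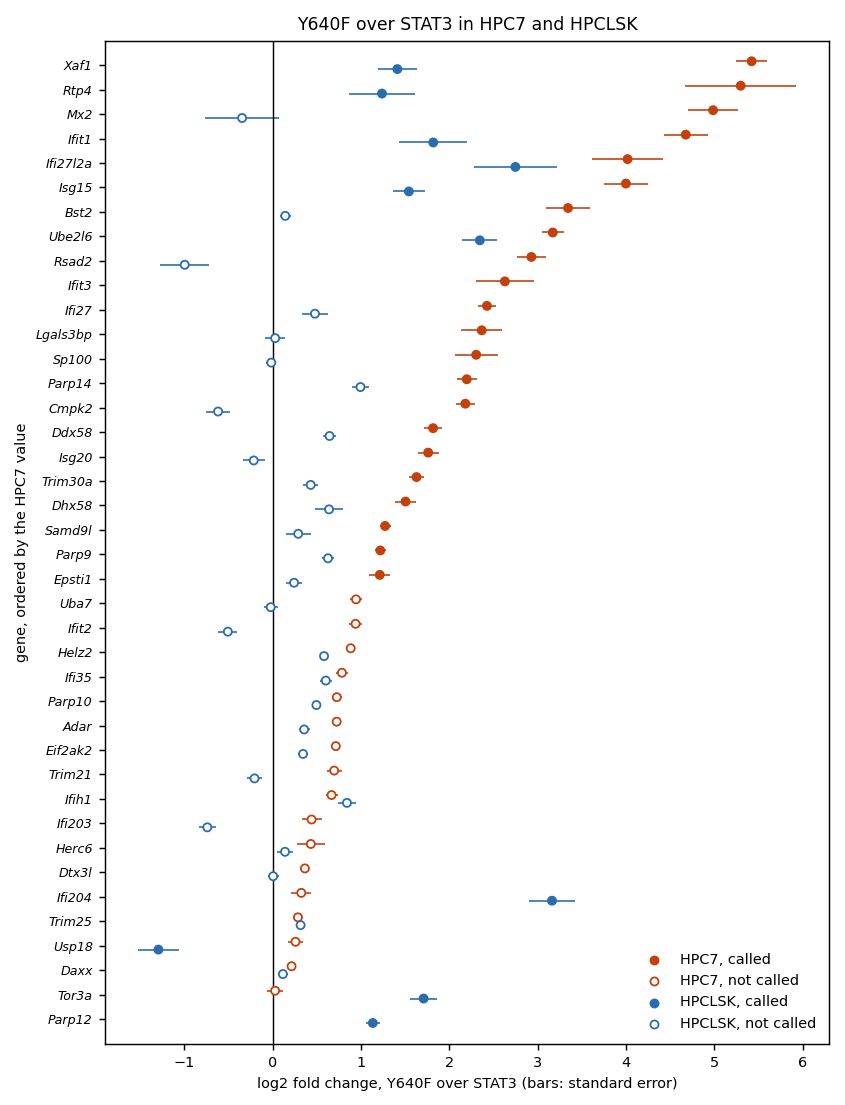
The log2 fold change of Y640F over STAT3 (horizontal axis, bars are standard errors) for each member tested, ordered by the HPC7 value, with HPC7 in orange and HPCLSK in blue and filled points for called members. The HPC7 values run from 0.03 for Tor3a to 5.42 for Xaf1, and the HPCLSK values from −1.29 for Usp18 to 3.16 for Ifi204.

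The difference between the lines was tested directly, as the HPCLSK log2 change minus the HPC7 one, over all 18 libraries. For Y640F against STAT3, 19 of 41 members tested were called lower in HPCLSK and 2 higher, where 8% of all 13891 genes were called lower and 4.48% higher, 12.5% in all. An adjusted p under 0.05 was reached by 33 members and 45.3% of all genes. Mx2 differed by −5.33 ± 0.66 (adjusted p = 3.1e-06), with HPCLSK levels of 0.733, 0.453 and 0.290 CPM with Y640F and 0.562, 0.797 and 0.305 with STAT3. Xaf1 (−4.01 ± 0.32), Rsad2 (−3.93 ± 0.35) and Bst2 (−3.18 ± 0.26) were the next in size among members with more than 3 counts in every group. The members called in the other direction were Ifi204 (2.85 ± 0.27) and Tor3a (1.69 ± 0.18).

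For Y640F against empty vector, 15 members were called lower in HPCLSK and 3 higher, with 7.25% of all genes lower and 7.74% higher, 15% in all, and 29 members and 48.6% of all genes had an adjusted p under 0.05. Rsad2, which rose in HPC7 and fell in HPCLSK, differed by −4.41 ± 0.34 (adjusted p = 6.1e-09). Mx2 differed by −3.65 ± 0.53, and Ifi204 by 4.60 ± 0.26 in the other direction (adjusted p = 1.6e-10). For STAT3 against empty vector, 11 members were called higher in HPCLSK and 0 lower, with 6.16% of all genes higher and 2.09% lower, 8.25% in all. An adjusted p under 0.05 was reached by 21 members and 30.4% of all genes; 2 members were lower at an unadjusted p under 0.05 and DESeq2 called 11 higher and 0 lower. Ifi27l2a (4.09 ± 0.81), Xaf1 (2.66 ± 0.33), Sp100 (2.26 ± 0.23), Ifi204 (1.75 ± 0.35), Mx2 (1.69 ± 0.61) and Lgals3bp (1.60 ± 0.37) had the largest values. Mx2 has few counts in HPCLSK, and its call (adjusted p = 0.045) was lost without library 1 or 2 of empty vector or library 2 of STAT3 in HPC7, and without each of the 3 empty vector libraries or library 1 or 2 of STAT3 in HPCLSK. That of Ifi27l2a was lost without library 2 of STAT3 in HPCLSK (2.61, adjusted p = 0.075).

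The lines already differed with empty vector alone. Of 41 members tested 15 were called higher in HPCLSK and 4 lower, against 22.8% and 13.6% of all genes, so that the members' total share of 46.3% compares with 36.4% of all genes called in either direction. HPCLSK libraries all stood above in 23 members (41.4% of all genes) and all below in 11 (39%), and 38 members and 80.6% of all genes had an adjusted p under 0.05. Parp12 had 1143 counts in the 3 HPCLSK libraries and 0 in the 3 HPC7 libraries, which makes it at least 599-fold higher when the HPC7 group is set to 3 counts. Rtp4 counts summed to 413 in HPCLSK and 2 in HPC7, 325 times as high after scaling, with 95% limits from counting error of 89.3 and 2691. Lgals3bp, a secreted galectin-binding protein, stood at 107, 142 and 134 CPM in HPCLSK and 1.00, 1.54 and 0.903 in HPC7 (log2 difference 6.84 ± 0.17, adjusted p = 3.5e-17). Sp100 stood at 87.5, 96.6 and 96.8 CPM against 3.47, 2.48 and 2.13 (5.14 ± 0.11), and Bst2 at 54.1, 57.2 and 58.1 against 2.28, 3.42 and 2.39 (4.41 ± 0.17). Bst2 and Sp100 thus stood far above their highest HPC7 level in every HPCLSK library, and neither was called with a vector in HPCLSK, where Bst2 had a log2 fold change of −0.25 ± 0.06 with STAT3 (adjusted p = 0.023).

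Usp18 went the other way, at 80.7, 100 and 83.9 CPM in HPC7 and 3.87, 6.78 and 6.13 in HPCLSK (log2 difference −3.93 ± 0.14, adjusted p = 5.1e-15). Ifi204 (−3.76 ± 0.21), Ifi27l2a (−1.09 ± 0.39) and Ifi203 (−1.07 ± 0.11) were the other members called lower in HPCLSK. Per kilobase of exon, the highest levels with empty vector were those of Daxx (35.7 CPM per kb), Usp18 (31.6) and Trim25 (26.3) in HPC7, and of Bst2 (62.5), Ifi27 (60.4) and Lgals3bp (44.9) in HPCLSK. The 3 members highest per kilobase thus differed between the lines. The plot of empty vector levels gives all members on the log2(CPM + 0.5) scale, not per length.

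**Figure D4:**
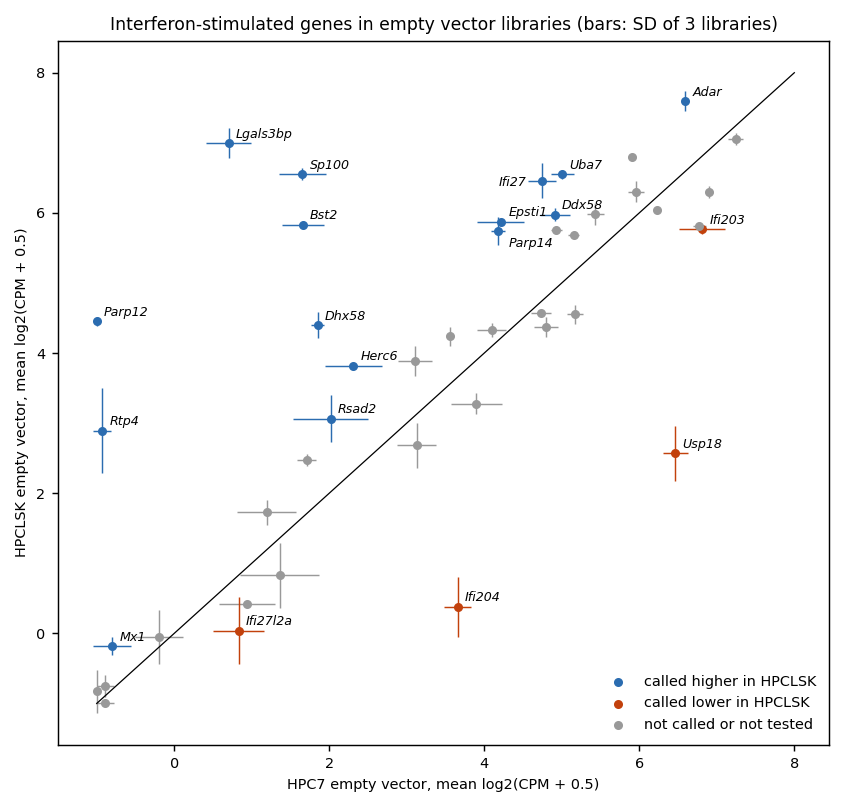
Mean log2(CPM + 0.5) of each of the 44 members in the 3 empty vector libraries of HPC7 (horizontal) and HPCLSK (vertical), with bars for the SD and a line of equal level; blue points are called higher in HPCLSK, orange lower, and grey not called or not tested. Parp12, Rtp4, Lgals3bp, Sp100 and Bst2 lie far above the line and Usp18 and Ifi204 far below it.

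Of the members, 12 were called in none of the 10 comparisons. Ifit3b, Ifi44 and Zbp1 were too low to test in any, and the Zbp1 RNA that codes for a sensor of left-handed nucleic acid was at 0 counts in all HPC7 libraries. The other 9, Ifi35, Ifih1, Parp10, Dtx3l, Trim21, Trim25, Eif2ak2, Helz2 and Daxx, averaged 19.2 (Trim21) to 146 (Trim25) CPM over the 6 groups. These are well-measured genes, so changes under 2-fold were resolved: Eif2ak2, for example, rose by 0.50 ± 0.04 with Y640F over empty vector in HPC7 (adjusted p = 2.0e-07).

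Of 11 listed interferon genes, Ifnb1 and Ifnz had 3 counts each over the 18 libraries and the other 9 had 0, and all the counts were in HPC7. Reads shared by near-identical genes, such as those of the Ifna family, are lost in the authors' counting, which limits what these zeros show. Of the 9 receptor chains and kinases, 8 were tested. Ifnar1 stood at 64.2, 66.7 and 62.9 CPM with Y640F, 49.7, 49.2 and 48.9 with STAT3 and 59.7, 69.8 and 68.7 with empty vector in HPC7, and Ifnar2 at 36.0, 22.9 and 34.3 CPM on average. In HPCLSK they were highest with Y640F, Ifnar1 at 202, 160 and 148 CPM against 92.5, 96.8 and 100 with empty vector (0.81 ± 0.10, under the fold minimum). Within lines the calls in this group were Ifngr2, a chain of the interferon gamma receptor, and Il10rb, a chain shared with the lambda interferon receptor. Ifngr2 rose for Y640F over STAT3 in HPC7 (1.66 ± 0.09) and HPCLSK (1.61 ± 0.18) and over empty vector in HPCLSK (2.20 ± 0.19). Il10rb rose for Y640F over STAT3 in HPCLSK (1.26 ± 0.16). No kinase was called within a line, and Jak1 had its lowest averages with Y640F (304 CPM in HPC7, 426 in HPCLSK).

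Of 9 transcription factors, 8 were tested in HPC7 and 9 in HPCLSK, and each comparison with Y640F had 1 called higher and 0 lower. That is 12.5% of those tested in HPC7, beside 8.18% (over empty vector) and 7.89% (over STAT3) of all genes, and 11.1% in HPCLSK, beside 16.2% and 14.2%. Irf9 stood at 35.4, 34.6 and 33.4 CPM with Y640F, 11.6, 12 and 11.7 with STAT3 and 17.7, 17.5 and 14 with empty vector in HPC7. It was called higher with Y640F than with empty vector (1.08 ± 0.08, adjusted p = 9.3e-08) and than with STAT3 (1.55 ± 0.08, adjusted p = 4.0e-09), with no overlap between the 3 groups. Stat2 averaged 41.5, 29.7 and 26.3 CPM with Y640F, STAT3 and empty vector (0.66 ± 0.06 over empty vector) and was not called. In HPCLSK Irf9 averaged 30.5, 22.9 and 28.2 CPM and was not called, and the response of Irf9 to Y640F over STAT3 differed between the lines by −1.13 ± 0.15 (adjusted p = 6.0e-06). Irf7, the factor that amplifies interferon responses, had at most 0.233 CPM in any HPC7 library. In HPCLSK it stood at 17.5, 15.3 and 15.8 CPM with Y640F, 3.05, 6.05 and 2.34 with STAT3 and 5.63, 9.90 and 7.32 with empty vector, a rise of 1.06 ± 0.26 over empty vector (adjusted p = 0.0046) and of 1.98 ± 0.28 over STAT3 (adjusted p = 0.0002). Irf7 RNA in HPC7 was thus near 0 in every group, and its part in the results for the members was not tested. The only other call in this group within a line was Irf8, lower with STAT3 than with empty vector in HPCLSK (−1.13 ± 0.27).

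**Figure D5:**
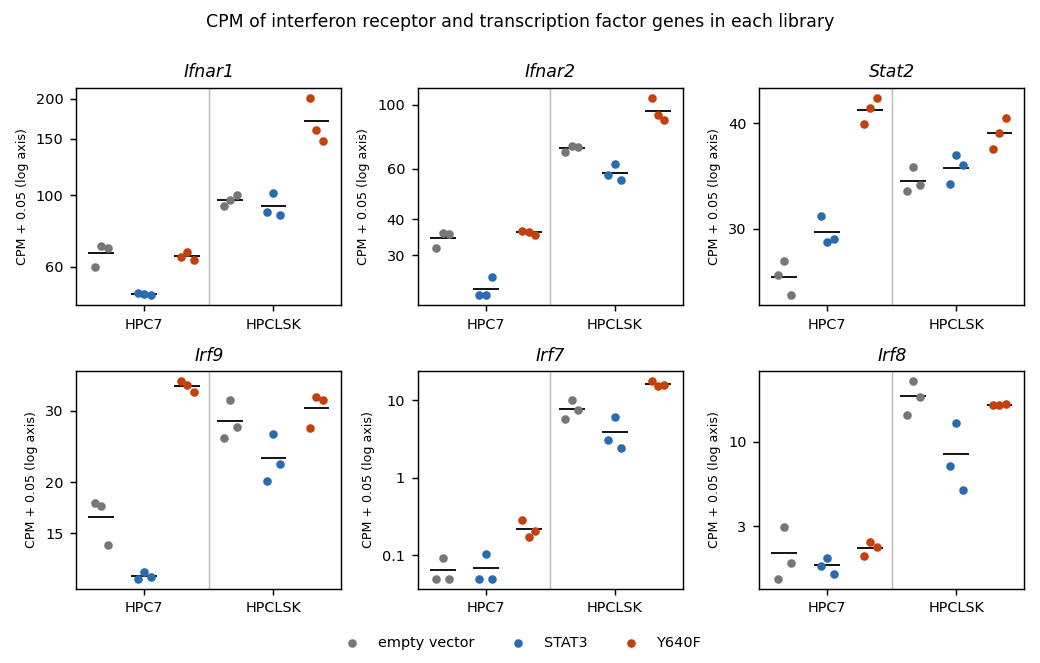
CPM + 0.05 on log axes, scaled within each line, for 2 receptor chains, Stat2, Irf9, Irf7 and Irf8 in each library, with empty vector in grey, STAT3 in blue and Y640F in orange and a bar at the mean. Irf9 in HPC7 is at 34.5 CPM on average with Y640F and 11.8 with STAT3, and Irf7 is near 0 in all HPC7 libraries.

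Of the 11 sensors and adaptors that act upstream of interferon, 9 were tested in HPC7 and 10 in HPCLSK. Ikbke, a kinase that phosphorylates interferon regulatory factors, stood at 0.0927, 0.272 and 0.236 CPM with STAT3 and 3.42, 3.05 and 2.57 with empty vector in HPC7 (−3.86 ± 0.27, adjusted p = 9.5e-08), and was higher with Y640F than with STAT3 (3.24 ± 0.28). In HPCLSK it rose with Y640F over empty vector (1.36 ± 0.17), from 64.6 to 167 CPM on average. Tlr9 was called lower with STAT3 in HPC7 (−1.32 ± 0.46) and higher with Y640F than with STAT3 (2.23 ± 0.39), at under 1 CPM. Myd88 (1.76 ± 0.06) and Tlr7 (2.18 ± 0.30) rose with Y640F over empty vector in HPCLSK. Of the 7 inhibitors, Socs3, a direct STAT3 target, was called higher with Y640F than with empty vector and with STAT3 in HPC7 (2.34 ± 0.10 and 3.25 ± 0.11) and in HPCLSK (2.79 ± 0.14 and 2.28 ± 0.14). Ptpn6, a phosphatase (1.53 ± 0.08), and Socs1, which blocks Janus kinases (1.73 ± 0.33), rose with Y640F over empty vector in HPCLSK. Socs1 was too low to test in HPC7. The difference between the lines for Ptpn6 was tested and was 1.65 ± 0.09 (adjusted p = 5.0e-11).

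Markers of mature blood cells also differed between the groups in HPCLSK, beside the interferon-stimulated genes. The summed CPM of 9 macrophage and monocyte markers ran from 1034 to 1850 with Y640F, 293 to 549 with STAT3 and 180 to 293 with empty vector, with Marco at 0 in all 3 groups, C1qa at 0 with empty vector and C1qb at 0 with Y640F, and 6 of 9 at 1 CPM or more in each group. In HPC7 the same sum was 24.0 to 26.3 CPM with Y640F, 17.9 to 18.4 with STAT3 and 21.3 to 25.3 with empty vector. The sum of 8 granulocyte markers in HPC7, mostly Mpo, was 130 to 151 with Y640F, 267 to 287 with STAT3 and 333 to 681 with empty vector. In HPCLSK it was 12111 to 16872 with Y640F, 13435 to 20497 with STAT3 and 7152 to 11392 with empty vector. The sum was thus above empty vector with both vectors. Mpo, the highest of the 8 in each HPCLSK group, went another way, averaging 4626 CPM with Y640F, 11159 with STAT3 and 7784 with empty vector. The sum of 6 mast cell and basophil markers in HPCLSK was 787 to 1104 with Y640F, 2677 to 2880 with STAT3 and 3812 to 5253 with empty vector. Of 7 markers of plasmacytoid dendritic cells, the main interferon producers in blood, Siglech and Klk1 were at 0 in every group and Tcf4, which progenitors also express, held nearly all of the sum of 43.1 to 65.0 CPM in HPC7 and 101 to 145 in HPCLSK. Of 5 T and NK cell markers, Nkg7 alone reached 1 CPM, averaging 24.7 CPM in HPCLSK with Y640F, 272 with STAT3 and 243 with empty vector. The sum of the 10 stem and progenitor markers in HPCLSK was 3367 to 3720 CPM with Y640F, 4610 to 4985 with STAT3 and 5273 to 5682 with empty vector, and Cd34 among them averaged 972, 1796 and 2304 CPM. In HPC7 it was 3604 to 3695, 3216 to 3259 and 3309 to 3597. The part of all these markers in the results was not tested. In bulk RNA, a change in the share of cells of one type and a change of RNA per cell cannot be told apart.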

How the data were processed

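RNA of 18 libraries was sequenced and aligned with STAR after trimming with Trimmomatic, per the submitters' processing notes. The deposited values are whole-number counts per gene, which the authors made with featureCounts 1.5.1 over GENCODE M13 exons on mouse build GRCm38/mm10, on the reverse strand only and without multi-mapping reads, per the file headers. Reads shared by near-identical genes are therefore lost. The labels name different library kits in different places, and the kit could not be settled. Groups came from the labels.

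Counts were fitted within each line (9 libraries, 6 residual degrees of freedom) and over all 18 libraries for comparisons between lines, with edgeR 4.0.16 in R 4.3.3 (TMM, filterByExpr, quasi-likelihood test). P-values were adjusted by Benjamini-Hochberg over all genes tested, and a call needs an adjusted p under 0.05 and a log2 fold change of at least 1 in size. Errors beside log2 values are standard errors. Ratios of near-0 groups use exact 95% intervals that cover counting error only. The fits were tried on simulated counts with the same spread for all genes and libraries, and with changes only in genes past a minimum count. That trial does not cover members with few counts or libraries that stood apart. DESeq2 1.42.0, other filters, scalings and fold tests, a replicate block and each library left out in turn were tried. The rule for named genes took the 8 called members of largest change in each comparison within a line (at least 2 CPM in the higher group), the 6 of largest change between lines and members called in opposite directions; other members were named after their values were seen. The members and lists were chosen with earlier results of these data known. The values of 1 listed pathway gene are not reported here.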

Additional observations from a re-analysis of the deposited data

Results flagged for a closer look

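Members whose response differed between HPC7 and HPCLSK by the direct test were found in all 3 contrasts: 11 members were called for STAT3 against empty vector (8.25% of all genes were), 18 for Y640F against empty vector (15% of all genes) and 21 for Y640F against STAT3 (12.5% of all genes), among 41 tested over 18 libraries. Values here are the HPCLSK log2 change minus the HPC7 one.

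For STAT3 against empty vector the largest were Ifi27l2a at 4.09, Xaf1 at 2.66, Sp100 at 2.26, Ifi204 at 1.75, Mx2 at 1.69 and Lgals3bp at 1.60. For Y640F against empty vector they were Rtp4 at −5.41, Ifi204 at 4.60, Rsad2 at −4.41, Mx1 at −3.97, Mx2 at −3.65 and Ifi27l2a at 2.85. For Y640F against STAT3 they were Mx2 at −5.33, Mx1 at −4.75, Xaf1 at −4.01, Rtp4 at −4.0, Rsad2 at −3.93 and Bst2 at −3.18. The fitted values of Rtp4 and Mx1 rest on HPC7 groups with 2 to 6 counts and are no bounds. Line, strain label and sequencing run cannot be told apart in these differences. No gap test for single outlying values was run within groups of 3 libraries.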

How the results depend on the processing

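Without the fold minimum, the members called numbered 31, 35 and 38 in HPC7 (STAT3 against empty vector, Y640F against empty vector, Y640F against STAT3), where 48.6%, 57.3% and 51.2% of all genes were called. They numbered 10, 26 and 28 in HPCLSK, beside 14.1%, 58.5% and 53.8% of all genes. Between the lines with empty vector they numbered 38, beside 80.6% of all genes. For the differences between lines they numbered 21, 29 and 33 in the same order, beside 30.4%, 48.6% and 45.3% of all genes. The HPCLSK count for STAT3 against empty vector was 2 with no filter, by DESeq2 and in the fit over 18 libraries, and 3 without both HPCLSK libraries numbered 1. Leaving out 1 library at a time gave 11 to 13, 13 to 17 and 22 to 24 members in HPC7, 1 to 3, 7 to 9 and 10 to 11 in HPCLSK, 16 to 18 between lines, and 9 to 12, 17 to 19 and 21 to 23 for the line differences. Sp100 with Y640F over empty vector in HPC7 (−0.02) changed sign to 0.33 with the chromosome median subtracted, and to 0.22, 0.094 and 0.010 without empty vector 1, Y640F 2 or Y640F 3. Leaving out 1 library at a time it ran from −0.18 to 0.22, and the cause was not tested. Same-numbered libraries did not pair (correlations of −0.123 to 0.0822 in HPC7 and −0.214 to 0.110 in HPCLSK), and with a replicate block the counts were 11, 13 and 22 in HPC7, 1, 8 and 11 in HPCLSK, 19 between lines and 11, 18 and 21 for the line differences. Depth limits Mx1, Ifit3b, Ifi44 and Zbp1, which had at most 45 counts in any group.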
